A study of Canis lupus familiaris with 2 samples.

Results

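Endocan (ESM1), the syndecans SDC1 to SDC4, the glypicans GPC1, GPC3, GPC4 and GPC6, and the chondroitin sulfate proteoglycan CSPG4 are 10 core proteins, secreted or held at the cell surface, that carry sulfated sugar chains. Their genes were read in 2 subclones of a canine glioma cell line, J3T-1 and J3T-2, which come from the same parental cell and are described as unlike in invasion and angiogenesis. Both were grown in DMEM with 10% fetal bovine serum, penicillin and streptomycin, and biotin-labelled cRNA from 250 ng of total RNA of each was hybridised to 1 Affymetrix canine array. The 10 genes are among 15115 named by probe sets that carry exactly 1 gene symbol. ESM1 was chosen by the size of its signal ratio between these same 2 arrays, so that ratio is a description and no finding. The other 9 were chosen as related core proteins, with earlier results of these data known.

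Each subclone is a single clone profiled on a single array. There is no replicate, so no test between the subclones was possible, and every value below compares these 2 arrays and not the conditions that led to them.

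Proteoglycans work through their chains as much as through their proteins. Heparan sulfate on syndecans and glypicans captures growth factors such as FGFs, HGF and VEGF and presents them to signalling receptors. Syndecans span the membrane and link the matrix to the actin skeleton, while glypicans are tied to the outer leaflet by a lipid anchor and tune Wnt, hedgehog and BMP signals. Endocan is a small secreted dermatan sulfate proteoglycan made mostly by activated endothelium, and CSPG4 (NG2) marks oligodendrocyte precursors and pericytes.

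The deposited values are MAS5 signals on a linear scale. A signal counted as above the floor when it was higher than the median of all non-control probe sets of its array, which came to 19 for J3T-1 and 22 for J3T-2. The floor is not a detection call, and a value below it has no order. A gene was measured when its brightest probe set exceeded the floor in either subclone, which held for 9433 genes. Log2 ratios are J3T-2 over J3T-1. A fold against a value at the floor is a lower bound and is given as "at least". The only error that could be had is how far the log2 ratios of a gene's own probe sets lie apart, an SD of 0.26 over 4580 genes. It was 0.36 for genes with a mean signal below 64, 0.25 from 64 to 512 and 0.16 above 512. This spread is technical and holds no difference between cultures.

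Of the 10 genes, 5 were measured (ESM1, SDC2, SDC4, GPC3 and GPC4) and 5 were not above the floor on either array (SDC1, SDC3, GPC1, GPC6 and CSPG4). A difference of 2-fold or more towards J3T-1 was seen for ESM1, SDC4 and GPC3 and towards J3T-2 for GPC4, while SDC2 lay within 2-fold. Over all 9433 measured genes the share this far apart was 3.49% towards J3T-1 and 7.28% towards J3T-2. GPC3 and GPC4 were measured through 1 array only, which favours a difference but does not force one of 2-fold. Nothing is therefore read from the count of 4 among 5.

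**Figure D1:**
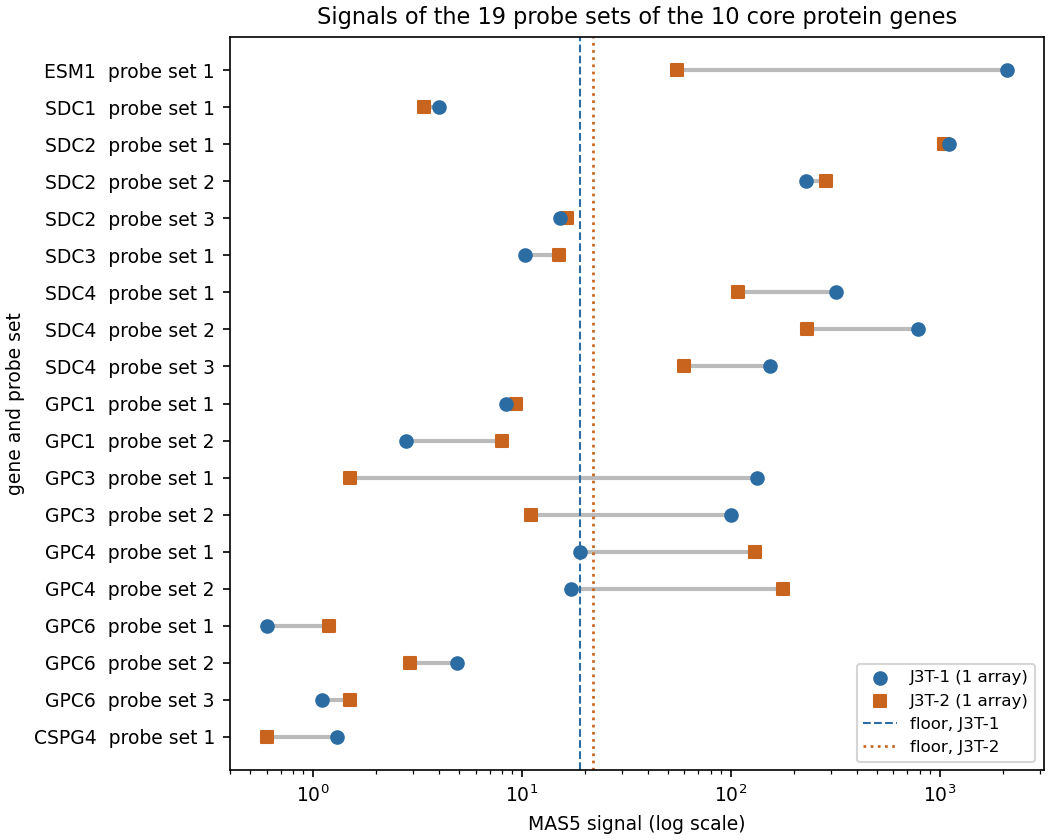
MAS5 signal (log scale) of each of the 19 probe sets of the 10 genes, with J3T-1 as blue circles and J3T-2 as orange squares, 1 array each, and each array's floor as a vertical line. ESM1 and the 3 SDC4 probe sets are higher in J3T-1 and above both floors, GPC3 and GPC4 cross the floors in opposite directions, and the probe sets of SDC1, SDC3, GPC1, GPC6 and CSPG4 lie below both floors.

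ESM1 encodes endocan, the one secreted protein among the 10. Its probe set read 2091 in J3T-1 and 55.4 in J3T-2, both above the floor. J3T-1 was 37.7-fold higher, a log2 ratio of -5.24. Among all measured genes, 2 (0.021%) were at least this far towards J3T-1, ESM1 itself included. ESM1 has a single probe set on the array, so the ratio has no second reading. In RNA from a whole culture, a few cells rich in a transcript and many cells with a little of it cannot be told apart. With the floor raised to the 75th percentile of each array the J3T-2 value fell to the floor and the difference became at least 17.3-fold.

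The search for genes with a pair of signals like that of ESM1 took only genes above both floors and left out uncharacterised genes (LOC symbols). Nearest among these were FST, GPNMB and CDKN1A, by distance in log2 signal over the 2 arrays. FST, the secreted activin antagonist follistatin, read 902.4 and 55.5 in J3T-1 and J3T-2. GPNMB, a transmembrane glycoprotein, read 880.7 and 55.9, and the cell cycle inhibitor CDKN1A read 1479.0 and 134.6. Their distances from ESM1 were 1.21, 1.25 and 1.37 in log2 units. All 3 were higher in J3T-1 and less bright there than ESM1, with folds of 16.3, 15.8 and 11.0 against its 37.7. A likeness over 2 arrays rests on only 2 signals per gene, and here on brightness as well as ratio.

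**Figure D2:**
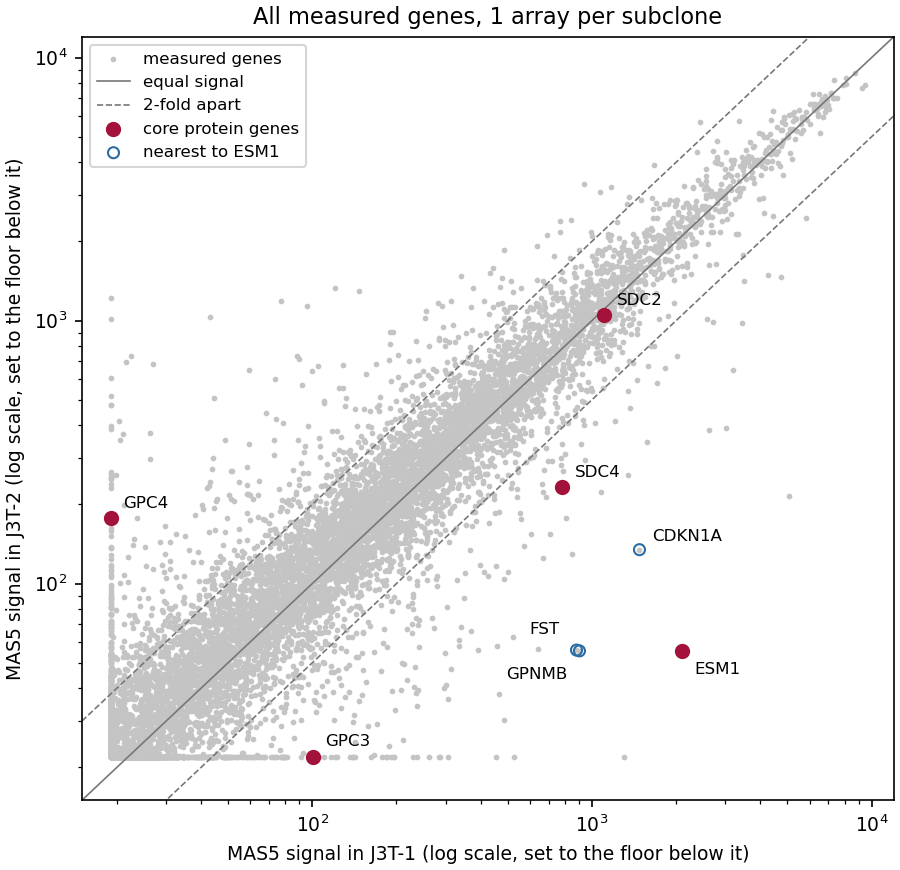
MAS5 signal in J3T-1 against J3T-2 for the 9433 measured genes (grey, both axes on a log scale, values below a floor set to it), with equal signal as a solid line and 2-fold as dashed lines. ESM1 (2091 and 55.4) lies beyond FST, GPNMB and CDKN1A, SDC2 lies on the diagonal, and GPC3 and GPC4 lie on the floors.

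Endocan is best known from endothelium, so endothelial markers were read beside it. Of 13 endothelial genes with a probe set, 7 were measured, and the signal summed over all 13 was 450.9 for J3T-1 against 225.5 for J3T-2. Such a sum takes the deposited signals, those below the floor included. PECAM1, TEK, TIE1, KDR, ESAM and CLDN5 were not above the floor on either array. The cadherin gene CDH5 read 36.8 and 26.5, and VWF, the von Willebrand factor gene, 21.0 and 22.8. EGFL7 read 44 and 74.7, while ERG (30.7 and 11.9), ROBO4 (33.2 and 10.6) and EMCN (27.3 and 19.3) were above the floor in J3T-1 only. The VEGF receptor gene FLT1 read 211.6 and 25.5 and made up most of the difference of the sum, which was 239.3 and 200 without it. Of 9 glioma and progenitor genes with a probe set, 7 were measured. VIM (8129.9 and 7960.8), CD44 (1206.7 and 1035.4) and NES (55.3 and 69.3) lay within 2-fold. SOX2 (411.1 and 1191.0), SOX9 (51.8 and 113.1), PDGFRA (43.7 and 98.9) and FABP7 (14.8 and 82.1, below the J3T-1 floor) were more than 2-fold higher in J3T-2. The astrocyte filament gene GFAP and S100B were not above it in either.

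Syndecan-4, which gathers at focal adhesions and binds protein kinase C alpha there, was the syndecan that differed. Its 3 probe sets read 784.3, 318.6 and 154.1 in J3T-1 and 232.7, 107.7 and 60 in J3T-2. All 3 were above both floors and each was higher in J3T-1. The folds were 3.37, 2.96 and 2.57, and the mean log2 ratio was -1.56 ± 0.20 (SD over 3 probe sets of 1 gene, not over samples). This distance is several times the spread between probe sets. By its brightest probe set, 112 genes (1.19% of those measured) were at least as far towards J3T-1.

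Syndecan-2, a main syndecan of mesenchymal cells, was bright in both subclones and did not differ by more than its own spread. Its brightest probe set read 1108.7 in J3T-1 and 1046.5 in J3T-2, a fold of 1.06 towards J3T-1. The next read 229.5 and 284.6, a fold of 1.24 towards J3T-2. The pair gave a mean log2 ratio of 0.11 ± 0.28 (SD over 2 probe sets), so no direction can be given. Its dimmest probe set read 15.3 and 16.5, below both floors, while the other 2 were well above them.

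Syndecan-1, typical of epithelia and plasma cells, and syndecan-3, typical of neurons, each had 1 probe set. SDC1 read 4.0 and 3.4 in the respective subclones, and SDC3 read 10.3 and 15.1. Both genes were below the floor in both subclones, and no fold is given. As the SDC2 probe sets show, 1 dim probe set does not show that a gene is silent.

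Glypican-3 and glypican-4 went opposite ways, and each was above the floor in 1 subclone only. Glypican-3, which binds hedgehog ligands and is lost in an overgrowth syndrome, read 100.4 and 133.1 by its 2 probe sets in J3T-1. In J3T-2 these read 11.1 and 1.5, below the floor of 22. J3T-1 was thus higher in GPC3 by at least 4.56-fold with the first and at least 6.05-fold with the second.

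Glypican-4, a glypican of neural progenitors that astrocytes also release to promote synapses, showed the reverse. Its probe sets read 17.2 and 19 in J3T-1, at or below the floor of 19, and 177.3 and 129.8 in J3T-2. J3T-2 was thus higher in GPC4 by at least 9.33-fold with the first and at least 6.83-fold with the second. Both carry the suffix _s_at, which marks probes shared between transcripts, so no reading of GPC4 was left once such probe sets were dropped. Its fold was at least 1.66 with the floor at the 75th percentile. There the probe set that stands for GPC3 (100.4 and 11.1) was not above the floor on either array, so GPC3 had no value. The other GPC3 probe set, at 133.1 in J3T-1, was not the one used. At least as far in their own direction lay 71 genes (0.753%) for GPC3 and 33 genes (0.35%) for GPC4. Both places rest on lower bounds that the chosen floor sets. Each gene passed it only in the subclone where it was higher, so nothing is read from these places.

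GPC4 and GPC3 are neighbours. In the RefSeq gene order of the assembly UU_Cfam_GSD_1.0, used here only for gene order because no build is named for the array, a single uncharacterised protein-coding gene, LOC102155575, lies between them. The first measured gene beyond GPC3 was CCDC160, a coiled-coil protein gene, which read 51.6 in J3T-1 and 268.6 in J3T-2. It was 5.21-fold higher in J3T-2, as GPC4 was. Beyond it PHF6 had a log2 ratio of 0.86 and the purine salvage gene HPRT1 one of -0.10. On the GPC4 side the nearest measured gene was RAP2C at -0.40, past USP26, HS6ST2 and MBNL3, which were not above the floor on either array. The stretch thus held ratios of both signs, with GPC3 between 2 genes of the opposite sign.

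**Figure D3:**
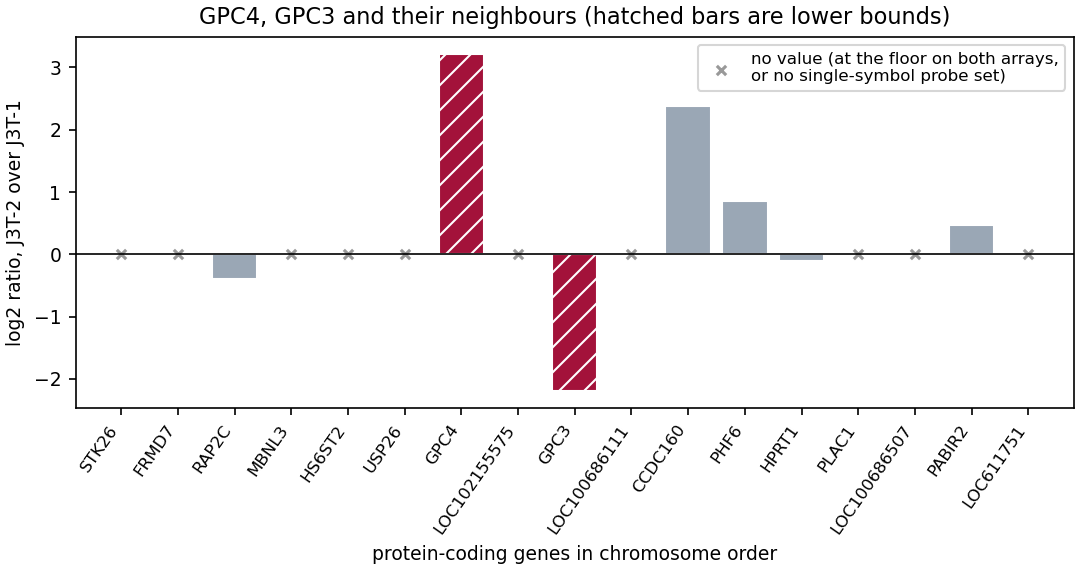
Log2 ratio of J3T-2 over J3T-1 for GPC3 and the 8 protein-coding genes on each side of it in chromosome order, with GPC4 and GPC3 in red, hatched bars for lower bounds and crosses for genes without a value. GPC4 and CCDC160 point towards J3T-2 and GPC3, between them, towards J3T-1.

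The genes next to ESM1 and SDC4 were read in the same way. Of the 16 protein-coding genes around ESM1, 4 were measured. SNX18, a sorting nexin gene, had a log2 ratio of 0.63, FBXO38 one of -0.23 and the respiratory chain gene NDUFS4 one of -0.09, while ARL15 was at least 2.86-fold higher in J3T-2. Of the 16 genes around SDC4, 5 were measured, and SYS1, DBNDD2 and PIGT, the nearest measured genes on one side, had log2 ratios of 0.30, 0.48 and 0.61. SPINT3, further out on that side, read 23.2 and 21.3, near the floors. WFDC5, the one measured gene on the other side, had a log2 ratio of -0.45, the sign of SDC4. No measured neighbour of ESM1 or SDC4 reached 2-fold towards J3T-1. With 4 and 5 genes measured, and 3.49% of all genes this far towards J3T-1, nothing is read from that.

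The 2 other glypicans on the list and CSPG4 were dim throughout. GPC1, the glypican of the adult nervous system, read 8.4 and 2.8 by its 2 probe sets in J3T-1 and 9.4 and 8.0 in J3T-2. GPC6 had 3 probe sets, which read 4.9, 1.1 and 0.6 in J3T-1 and 2.9, 1.5 and 1.2 in J3T-2. CSPG4 read 1.3 and 0.6. All lay below the floors, so none has a fold. The 8 probe sets of the 5 unmeasured genes ranged from 0.6 to 10.3 in J3T-1 and from 0.6 to 15.1 in J3T-2.

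CSPG4 is shared by pericytes and oligodendrocyte precursors, whose other markers were read beside it. Of 9 pericyte genes 3 were measured, and PDGFRB, RGS5, DES, NOTCH3, KCNJ8 and ABCC9 were not above the floor on either array. Smooth muscle actin ACTA2 read 22.8 and 140.7 and made up most of the difference in the pericyte sum, 109.7 against 222.5. That sum too includes signals below the floor. Of the precursor genes with a probe set, PDGFRA (43.7 and 98.9) and VCAN were measured, and SOX10 and NKX2-2 were not.

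Core proteins outside the family of 10 went both ways. Of 19 measured, 5 reached 2-fold towards J3T-1, 5 towards J3T-2 and 9 neither, beside 3.49% and 7.28% of all genes. Of the 16 above both floors, 4 reached it towards each subclone, beside 251 and 522 of 8266 genes. The list had a median log2 ratio 0.09 above the 0.17 of all measured genes. Versican (VCAN), the large hyaluronan-binding proteoglycan, read 486.6 and 104.2, 4.67-fold higher in J3T-1 (3.42-fold by the second probe set). The amyloid precursor relative APLP2 read 607.9 and 154.5 (3.93-fold), and TMEFF2, a transmembrane chondroitin sulfate proteoglycan, read 184.8 and 57.3 (3.23-fold). Betaglycan (TGFBR3), the TGF-beta co-receptor, exceeded its J3T-2 level in J3T-1 by at least 3.52-fold. The laminin receptor gene BCAM was 2.01-fold higher there, but only 1.06-fold with its second probe set.

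Towards J3T-2, serglycin (SRGN), an intracellular granule proteoglycan, read 18.0 and 115.4 and was at least 6.07-fold higher. The second probe set, at 4.7 and 31.4, gave at least 1.65-fold. The receptor phosphatase PTPRZ1, which carries chondroitin sulfate in glial cells, read 91.5 and 286.9 (3.14-fold). The small leucine-rich proteoglycans fibromodulin (FMOD, 43.9 and 114.3) and biglycan (BGN, 418.2 and 899.2) were 2.6-fold and 2.15-fold higher, while decorin (DCN) and lumican (LUM) had log2 ratios of 0.46 and -0.69. TMEFF1 was 2.19-fold higher. The glypican genes GPC2 and GPC5 were not above the floor on either array.

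Of 37 measured genes on the chain synthesis lists, transporters and phosphatases included, 2 (5.41%) reached 2-fold towards J3T-1 and 3 (8.11%) towards J3T-2. These shares are near the 3.49% and 7.28% of all genes. Another 28 were above both floors and within 2-fold, and 4 had only a lower bound under 2-fold. The list median, relative to all genes, was -0.23 in log2. Of the 9 measured genes for the heparan sulfate chain and its sulfation, 8 lay within 2-fold and HS3ST5 had only a lower bound. The polymerase genes EXT1 (806.0 and 859.5) and EXT2 (609.1 and 501.2) had log2 ratios of 0.09 and -0.28. The largest differences in that group were HS2ST1, the heparan sulfate 2-O-sulfotransferase gene, at 0.75, and HS3ST5, with J3T-1 ahead by at least 1.46-fold. Several sulfotransferase genes were not measured, HS6ST2, HS6ST3 and HS3ST2 among them.

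Chondroitin and dermatan sulfate enzymes, the kind that act on endocan, versican and CSPG4, held both of the glycan synthesis genes that reached 2-fold towards J3T-1. UST, which sulfates uronic acids of these chains, read 947.9 and 294.3, 3.22-fold higher, and its other 3 probe sets gave 2.04-fold to 3.19-fold in the same direction. CSGALNACT1, which adds the sugar that commits a linker to chondroitin sulfate, read 121.0 and 10.5 and was at least 5.5-fold higher by its 1 probe set. CSGALNACT2 (124.5 and 118.9), the enzyme of the same step, was within 2-fold. The chondroitin 4-O-sulfotransferase gene CHST11 was 2.25-fold higher in J3T-2, from a J3T-1 signal of 25.5 near the floor. Of the other 10 measured genes 7 lay within 2-fold, and CHST13, DSEL and CHST15, above the floor on 1 array, had lower bounds under 2-fold.

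Both early steps of chain synthesis had 1 gene past 2-fold by its brightest probe set. UXS1, which makes the UDP-xylose that starts every chain, read 124.5 and 554.0, 4.45-fold higher in J3T-2 (3.3-fold by the second probe set). The other 8 measured genes for sugar and sulfate donors, UGDH (1651.6 and 2045.5) among them, were within 2-fold by their brightest probe sets. The dimmest UGP2 probe set read 157.2 and 78.6, 2-fold higher in J3T-1. In the linkage region the xylose phosphatase gene PXYLP1 read 31.0 and 143.6, 4.63-fold higher in J3T-2. Its partner FAM20B, the xylose kinase gene, was 1.44-fold higher in J3T-2 by its brightest probe set and 1.76-fold, 2.1-fold and 2.58-fold higher by its other 3. The 4 others measured in the linkage region lay within 2-fold by their brightest probe sets. The second B3GAT3 probe set, at 11.2 and 39, was at least 2.05-fold higher in J3T-2.

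**Figure D4:**
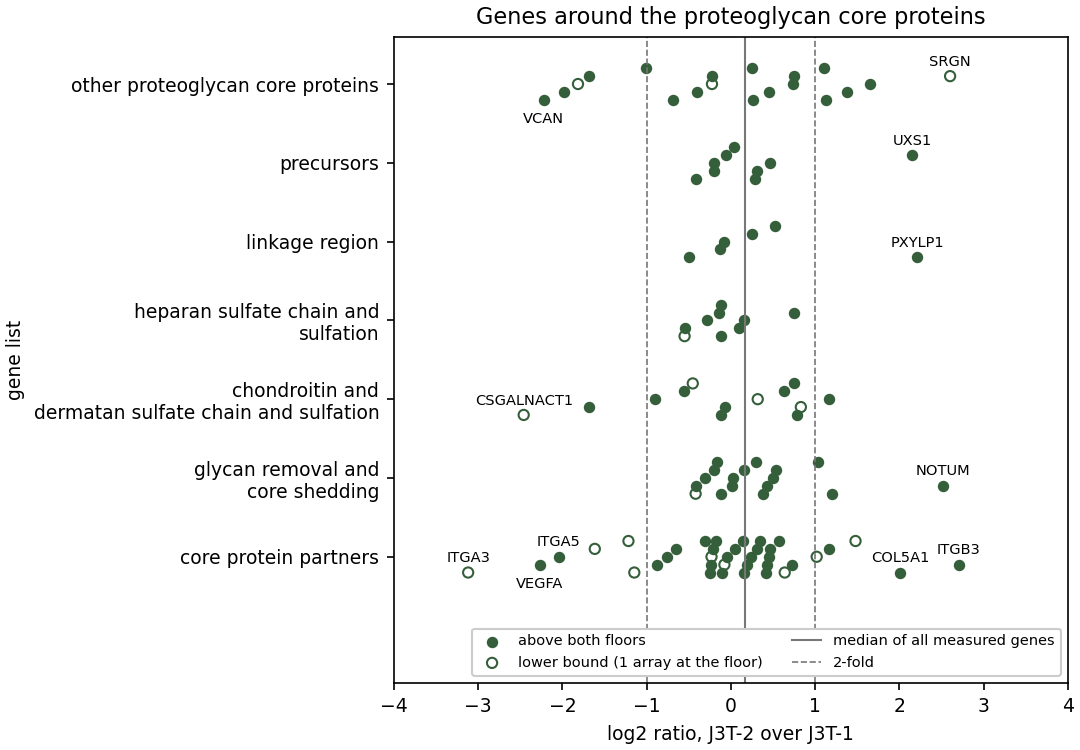
Log2 ratio of J3T-2 over J3T-1 for every measured gene of 7 lists around the core proteins that has a fold, with filled circles above both floors and open circles as lower bounds. The grey line marks the median of all genes (0.17) and the dashed lines 2-fold, and genes at least 4-fold apart are named; the heparan sulfate genes all lie between the dashed lines, HS3ST5 as a lower bound.

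The list for chain removal and core protein release held 18 measured genes. Of these, 3 (16.7%) reached 2-fold towards J3T-2 and 0 towards J3T-1, beside 7.28% and 3.49% of all genes. Another 13 were above both floors and within 2-fold, and ADAMTS4 (29.4 and 2.3) and HPSE, both above the floor in J3T-1 only, were not shown to be. NOTUM read 22 and 126.1, 5.73-fold higher in J3T-2. It is an esterase that binds glypicans and strips the lipid from Wnt proteins, so it cuts neither chain nor core. It is on the list and among the 3 all the same. ARSB and NAGLU, lysosomal enzymes that degrade chondroitin and heparan sulfate, were 2.3-fold and 2.06-fold higher in J3T-2. The count of 3 became 1 after quantile normalization or loess and 0 at the 75th percentile floor, so nothing is read from it. The sheddase gene ADAM10 (973.4 and 1414.9), SULF2, the extracellular 6-O-endosulfatase gene (134.3 and 189.3), and MMP14 (72.8 and 54.5) were within 2-fold. SULF1 and MMP9 were not above the floor on either array. Heparanase (HPSE) read 20.9 and 5.9, too close to the floor for a fold.

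Partners of the core proteins went both ways. Of 37 measured genes, 6 (16.2%) reached 2-fold towards J3T-1 and 5 (13.5%) towards J3T-2, beside 3.49% and 7.28% of all genes. Of the 28 above both floors, 2 reached it towards J3T-1 and 3 towards J3T-2, beside 251 and 522 of 8266 genes. The others past 2-fold were above the floor on 1 array only, which favours a difference, so nothing is read from the counts. The list median, relative to all genes, was -0.11 in log2, with lower bounds taken as values. Among the 28 genes above both floors, relative to all such genes, it was -0.01. VEGFA, a growth factor that binds heparan sulfate and raises ESM1 in endothelium, read 1077.5 and 223.7, 4.82-fold higher in J3T-1, and 2.44-fold by its other probe set. Its receptor gene KDR was not above the floor on either array. HGF, which endocan binds through its chain, read 48.7 and 9.0, a difference of at least 2.21-fold. Its receptor gene MET read 1316.0 and 1224.8. FGF2 (188.3 and 111.2) and FGFR1 (209.9 and 282.8) were within 2-fold.

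Integrins that act beside syndecans split by subunit. ITGA5, which works with syndecan-4 on fibronectin, read 570.4 and 138.7, 4.11-fold higher in J3T-1 and 2.31-fold by its other probe set. ITGA3, an integrin subunit engaged by CSPG4, read 191.1 and 4.3, a difference of at least 8.69-fold. ITGB3, which pairs with ITGAV in vitronectin receptors, read 68.4 and 445.9, 6.52-fold higher in J3T-2. The shared subunits ITGB1 (3335.8 and 2127.8) and ITGAV (657.6 and 565.7), and the ligand gene FN1 (3784.3 and 3337.7), lay within 2-fold by their brightest probe sets. The dimmest of 4 FN1 probe sets read 499.5 and 226.7, 2.2-fold higher in J3T-1.

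Among the other partners, the collagen VI gene COL6A1, whose product is a ligand of CSPG4, read 67.4 and 1.9 and the endocytic receptor gene LRP1 51.1 and 15.1. J3T-1 led by at least 3.06-fold and at least 2.32-fold. The collagen V gene COL5A1 was 4.03-fold higher in J3T-2, and 3.48-fold by its other probe set. PRKCA, the kinase that syndecan-4 binds, read 15.5 and 53.0 and was at least 2.79-fold higher in J3T-2. The Wnt co-receptor gene LRP6 was 2.24-fold higher in J3T-2. PTPRS, a phosphatase that binds heparan sulfate on glypican-4, read 15.8 and 38.5, a difference of at least 2.03-fold. The adaptor genes that bind syndecan tails and were measured, CASK and GIPC1, had log2 ratios of 0.45 and 0.30.

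The scaling of the arrays bears on genes near 2-fold. All measured genes together had a median of 0.17, on the J3T-2 side, and once ratios were centred there the share of 2-fold genes that were higher in J3T-2 went from 67.6% to 51.9%. It was 48.4% after quantile normalization and 49.1% after loess. Under at least 1 of these scalings 7 of the genes above, namely ARSB, BGN, CHST11, LRP6, NAGLU, PTPRS and TMEFF1, came under 2-fold, PTPRS as a lower bound. The chondroitin synthase gene CHSY3 and the integrin gene ITGB5, within 2-fold as deposited, were more than 2-fold higher in J3T-1 under all 3. At a 75th percentile floor NAGLU, TMEFF1, TMEFF2, NOTUM, PXYLP1, CSGALNACT1 and ITGA3 each had 1 array set to the floor, which left lower bounds under 2-fold. With no floor and a pseudocount of 16, ARSB, BCAM, CHST11, LRP6, NAGLU, PTPRS and TMEFF1 were under 2-fold. BCAM was 1.46-fold higher in J3T-1 when probe sets were combined by their median, and LRP1 then had a bound of at least 1.95-fold. Once _s_at and _x_at probe sets were dropped, SRGN and LRP1 each had a bound of at least 1.65-fold. The directions of ESM1, SDC4, GPC3 and GPC4 held under all 3 scalings, with log2 ratios after centring of -5.40, -1.92, -2.36 and 3.06.

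**Figure D5:**
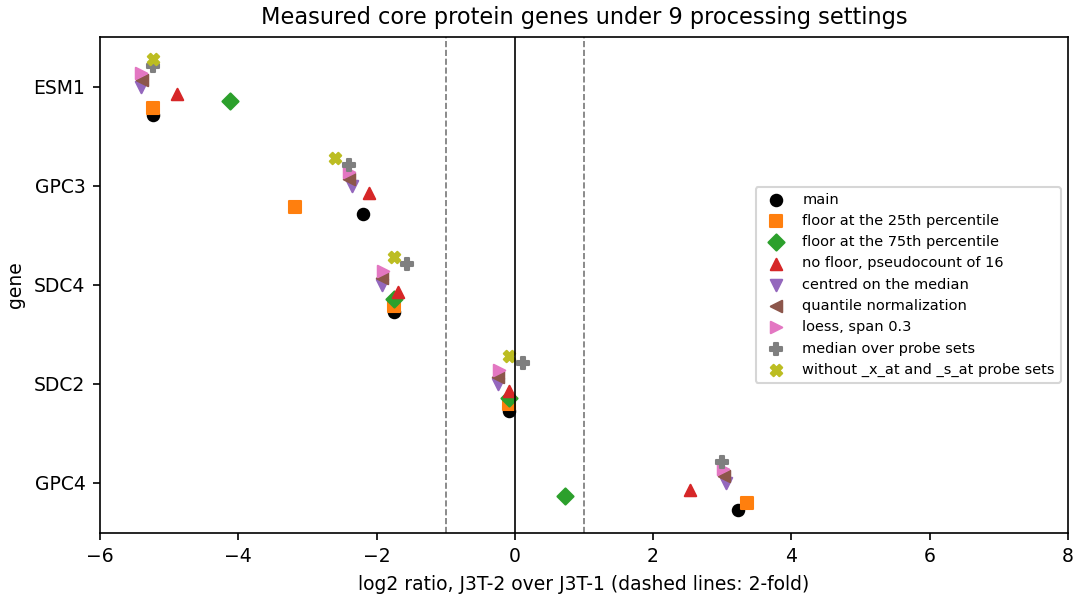
Log2 ratio of J3T-2 over J3T-1 of the 5 measured core protein genes under the setting used throughout (black) and 8 others, with dashed lines at 2-fold. ESM1 and SDC4 stay beyond 2-fold towards J3T-1 in all 9, SDC2 lies near 0 and changes sign, and GPC4 at the 75th percentile floor has only a lower bound, under 2-fold.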

How the data were processed

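The submitters' processing notes name MAS5, and the authors deposited its signal intensity on a linear scale, 1 value per probe set and array. The sources used here give no MAS5 version, scaling target or detection call. Of 43035 probe sets, 111 were controls. The array annotation gave 1 gene symbol to 29254 of the rest, several to 439 and none to 13231, and only the first kind named a gene.

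Signals below each array's median were set to it, with no further scaling. The probe set that stands for a gene is the one whose log2 signals had the highest mean (signals under 1 taken as 1). Genes were counted by size, a fold of at least 2. Named were the 10 members, each measured list gene at least 2-fold apart or, where a list had none, its 2 largest. The 3 genes nearest to ESM1 were also named, from genes above both floors without a LOC symbol. Other list genes were named after their values were seen. The members and lists were chosen with earlier results of these data known.

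The gene table was tested on simulated data. Values were recomputed under 8 other settings (3 floors, 3 scalings, 2 choices of probe sets). The number of arrays limits the precision. The scripts ran in Python 3.11.15 with pandas 2.3.3, numpy 2.4.6, matplotlib 3.10.9 and statsmodels 0.14.6. No sequences of the genes or probes were used.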

Additional observations from a re-analysis of the deposited data

How the results depend on the processing

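No paired analysis was possible because each subclone has 1 array. All 36 named genes at least 2-fold apart kept their direction in every one of the 8 other settings that gave them a value. They were picked for that difference on the same 2 arrays, which left little room for a reversal, so this is no independent support. Of 288 single-gene values, 248 moved by no more than the SD between probe sets. SDC2, never called, ranged from -0.25 to 0.11.

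At a 75th percentile floor (5236 genes measured), members past 2-fold towards J3T-2 went from 1 to 0. Other core proteins then gave 2 and 2 (J3T-1, then J3T-2), glycan synthesis 1 and 1, glycan removal 0 higher in J3T-2, partners 2 and 2, and all genes 121 and 264, or 385 in all. At a 25th percentile floor (13404 genes), other core proteins gave 8 higher in J3T-1, glycan synthesis 4 and 6, glycan removal 2 higher in J3T-1, and all genes 869 and 1512, or 2381 in all, against 1016 in the setting used. With no floor and a pseudocount of 16, glycan removal gave 1 higher in J3T-1 and partners 3 higher in J3T-2.

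Centring, quantile normalization and loess each gave 3 other core proteins and 3 partners higher in J3T-2. Quantile normalization and loess each gave 1 glycan removal gene higher in J3T-2, and 438 and 440 of all genes. Without _x_at and _s_at probe sets, members higher in J3T-2 were 0 because GPC4 had no other probe set, other core proteins higher in J3T-1 were 3, and partners 3 and 3. Fewer genes are measured under a higher floor and without those probe sets, and more under a lower floor. Centring takes the median of 0.17 off every ratio. What else made the counts move was not tested. Dim signals limit GPC3 and GPC4 to lower bounds.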
